A study of Mus musculus and Rattus norvegicus with 37 samples.

Results

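The fibrillar collagen genes Col1a1, Col1a2, Col3a1, Col5a1, Col5a2 and Col5a3 were followed in RNA-seq of 37 livers. They were taken by their gene names from 4 tables of normalized counts, and are 6 of the 48059 named entries in each mouse table. In rats 5 of the 32549 named entries matched, since no entry there carried the name Col1a2. The 21 mouse livers came from females on a C57BL/6J background that were fed and received 1 subcutaneous injection of saline or LNA29 before the liver was taken on day 7. LNA29 is a mix of locked nucleic acids, short modified oligonucleotides that bind and block the microRNAs miR-29a and miR-29b/c, at 20 mg/kg each. The WT/Floxed mice comprised 7 WT mice of 9 to 11 weeks (4 with LNA29, 3 with saline) and 6 mice of 15 to 20 weeks with a floxed Sirt1 gene (4 with LNA29, 2 with saline, after the authors excluded 1 saline-treated floxed mouse). The L-Sirt1 KO mice, littermates of the floxed mice, were made to lack Sirt1 in the liver only (4 with LNA29, 4 with saline), and were 15 to 20 weeks old as well. The promoter that drove the deletion is not given in the sources used here. The 16 rats were males. Zucker Fatty rats (ZFR), which carry the fa/fa mutation of the leptin receptor and become obese, were compared with Zucker Lean rats (ZLR) at 5.5 months (4 each). ZFR of 3 months received daily intraperitoneal injections of BT2, an inhibitor of the kinase that restrains branched-chain ketoacid breakdown, at 20 mg/kg in dimethylsulfoxide, or dimethylsulfoxide alone as vehicle, for 1 week (4 each).

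Fibrillar collagens are secreted proteins whose chains wind into triple helices and assemble outside the cell into fibrils. Col1a1 and Col1a2 encode the chains of type I collagen, and Col3a1 encodes the chain of type III collagen, which is found with type I in soft tissues such as liver. Col5a1, Col5a2 and Col5a3 encode chains of type V collagen, a minor component that is built into type I fibrils and helps to set how they start and how thick they become. In the liver these genes are known above all from stellate cells and fibroblasts, which deposit collagen in fibrosis, and several of them are established targets of miR-29. A microRNA pairs through its seed, bases 2 to 8 from its 5′ end, with sites that lie mostly in the 3′ untranslated region (3′ UTR) of a messenger RNA.

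The mature miR-29 sequences are shown because LNA29 blocks them and because they share 1 seed, which is in capitals (RefSeq, GRCm38.p6).
mmu-miR-29a-3p: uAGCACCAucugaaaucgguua
mmu-miR-29b-3p: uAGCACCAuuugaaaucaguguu
mmu-miR-29c-3p: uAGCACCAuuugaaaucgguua
The 3 sequences differ from each other only outside the seed.

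The annotated 3′ UTRs of the mouse genes (GENCODE M21, GRCm38, the build that the authors call mm10) were searched on the transcribed strand for TGGTGCT, the reverse complement of the seed. Where an A follows, TGGTGCTA, the site has 8 bases. Of the 6 genes 5 held at least 1 site, as did 16.3% of the 13477 tested genes with an annotated 3′ UTR, and an 8-base site was present in 5 of the 6 genes against 3.51% of the same genes. At least 2 sites were found in Col5a1 and Col5a3, and in 2.69% of the tested genes with a 3′ UTR. The sites are shown, 5′ to 3′ with the match in capitals, since the genes differ most in how many they hold.
Col1a1 (chr11:94952527-94952556, plus strand): gaaggaatttcTGGTGCTAtagaagctgag
Col3a1 (chr1:45348971-45349000, plus strand): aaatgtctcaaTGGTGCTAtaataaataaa
Col5a1, site 1 (chr2:28037993-28038021, plus strand): ctatgaacattTGGTGCTgaattttttac
Col5a1, site 2 (chr2:28038023-28038052, plus strand): cttgtctcttgTGGTGCTAtgtgtccggag
Col5a1, site 3 (chr2:28038339-28038368, plus strand): ctgaatgtttgTGGTGCTAatctctgtgtg
Col5a1, site 4 (chr2:28038711-28038739, plus strand): gagagtcactcTGGTGCTtgtgtccccac
Col5a2 (chr1:45374954-45374983, minus strand): tcttttaatgaTGGTGCTAaaattatttct
Col5a3, site 1 (chr9:20770770-20770798, minus strand): catgggctcctTGGTGCTgaggctctgag
Col5a3, site 2 (chr9:20770492-20770521, minus strand): accaggcctttTGGTGCTAttcctttccat
Col5a3, site 3 (chr9:20770241-20770269, minus strand): aggatcctacaTGGTGCTgccctgctcat
The 882 bases of the annotated Col1a2 3′ UTR held no 7-base match of this kind. A shorter pairing, to bases 2 to 7 of the seed with an A opposite base 1 (GGTGCTA, which also lies inside every 8-base site), was searched after this was seen and was present once in Col1a2, so that all 6 genes held a match of this second kind against 8.25% of the tested genes with a 3′ UTR. Counted with those inside 8-base sites, there were 3 in Col1a1, 2 each in Col3a1, Col5a1 and Col5a2, and 1 each in Col1a2 and Col5a3. The match in Col1a2 is shown because that gene has no 7-base seed match.
Col1a2 (chr6:4541167-4541195, plus strand): tgcaacacaaaGGTGCTAattagtagtat
A match describes the sequence and does not show that miR-29 binds there. No such search was made in rats.

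Mouse libraries held an estimated 42.6 to 78.0 M reads (M, mega) and rat libraries 0.188 to 58.5 M reads, with 12 of the 16 rat libraries under 5 M reads. Depth was estimated because the deposited values are counts already divided by size factors. The level of Sirt1 in the 8 libraries labelled L-Sirt1 KO, 535 to 617 normalized counts, lay within the range of the 13 WT/Floxed libraries, 493 to 699. A value per gene cannot tell a shortened Sirt1 transcript from a full one, so this level does not check the deletion, and these mice are called labelled L-Sirt1 KO below. All 6 hepatocyte markers were detected in the 4 tables.

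Levels of the 6 genes can be compared with each other only per transcript length, so normalized counts were divided by the length in kilobases (kb) of the main annotated transcript, which runs from 5348 bases for Col1a2 to 8406 for Col5a1. On this scale Col3a1 was the highest of the 6 genes in each of the 21 mouse livers, with 268 to 506 normalized counts per kb in saline-treated WT/Floxed mice. Col1a2 came next in 4 of these 5 mice, with 121 to 212 normalized counts per kb, and Col1a1 had 58.3 to 106. The ranges of Col1a1, Col5a3 (82.7 to 151 per kb) and Col5a1 (53.5 to 95.2 per kb) overlapped, so these 3 neighbours had no fixed order from mouse to mouse. Col5a2 was the lowest in each of the 21 livers, at 21.6 to 55.3 normalized counts per kb in saline-treated WT/Floxed mice. In every library of these 5 mice Col1a1 was below Col1a2 per kb, with ratios of 0.385 to 0.698.

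In WT/Floxed mice 4 of the 6 fibrillar collagen genes rose with LNA29, namely Col3a1, Col5a1, Col1a2 and Col1a1, by 1.58-fold to 2.31-fold in the group means. Over all 15811 genes tested, 2.42% were called higher by the same rule (p under 0.05, adjusted p under 0.2, mean above 50 and fold above 1.2), and 1.93% were called lower, with 0 of the 6 genes among them. The median log2 fold change over the 6 genes was 0.68, against 0.00 over all tested genes. This comparison asks what happens to these genes when miR-29 is suppressed.

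Col3a1 showed the clearest rise of the type III chain. Its normalized counts with saline were 2526, 1493, 2458, 2816 and 1726, and with LNA29 the lowest was 3177, the median 5528 and the highest 7184. All 8 LNA29-treated livers lay above all 5 saline-treated livers, a separation shared by 0.942% of the tested genes and by no other of the 6 genes. The log2 fold change was 1.19 (SE 0.218, adjusted p = 0.0162).

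Of the type I chains, Col1a2 had saline counts of 1040, 646, 1035, 1133 and 811. With LNA29 its lowest count was 1032, its median 1559 and its highest 2046. The groups overlapped only through 2 floxed LNA29-treated livers, at 1032 and 1132, that lay below the highest saline-treated WT liver. Col1a2 rose by 0.69 on the log2 scale (SE 0.177, adjusted p = 0.0752). Its partner Col1a1 was more variable with LNA29, with a lowest count of 514, a median of 830 and a highest of 1997, against 556, 346, 536, 484 and 627 with saline. Of the LNA29-treated livers, 1 floxed liver fell inside the saline range and the other 7 lay above it. The log2 fold change of Col1a1 was 0.87 (SE 0.253, adjusted p = 0.123), and its call was lost when LNA29 replicate 7 or saline replicate 2 or 4 was left out (adjusted p = 0.203 to 0.253).

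Of the type V chains only Col5a1 was called, and differences between the chains were not tested. Col5a1 had saline counts of 514, 534, 596, 801 and 449, and with LNA29 a lowest of 680, a median of 914 and a highest of 1190. Only saline replicate 4, a WT mouse, reached into the LNA29 range. Col5a1, the chain present in most type V molecules, rose by 0.67 on the log2 scale (SE 0.144, adjusted p = 0.0331). Genes on the opposite strand, 2810430I11Rik and Gm13372, overlap its locus, and the sources used here do not say whether reads were counted by strand. Annotated genes on the same strand overlap the loci of Col1a2 (Gm43921), Col3a1 (Gm47302) and Col5a2 (Gm38211). Gm26274, on the opposite strand, overlaps that of Col5a3, and none overlaps that of Col1a1. Col5a2 had saline counts of 144, 143, 366, 354 and 168 and LNA29 counts from 254 through a median of 287 to 759. The WT livers on saline were split between low and high values, and the groups overlapped. Its log2 fold change of 0.66 did not pass (SE 0.297, adjusted p = 0.357), although it did when the WT or floxed background was added to the fit (0.73, adjusted p = 0.145) and in floxed mice alone (0.81, adjusted p = 0.0964). Col5a3 had saline counts of 506 to 921 and LNA29 counts of 526 to 1207, ranges that overlapped almost wholly. Its log2 fold change of 0.28 did not pass (95% interval -0.12 to 0.68, adjusted p = 0.578). The libraries were run on 3 flow cells, as their labels give them. Within these the LNA29 minus saline difference on the log2 scale was 0.79 to 1.41 for Col3a1, 0.59 to 1.304 for Col1a1, 0.33 to 0.97 for Col1a2 and 0.57 to 0.78 for Col5a1. For Col5a2 it was 0.06 to 1.25 and for Col5a3 -0.02 to 0.34.

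**Figure D1:**
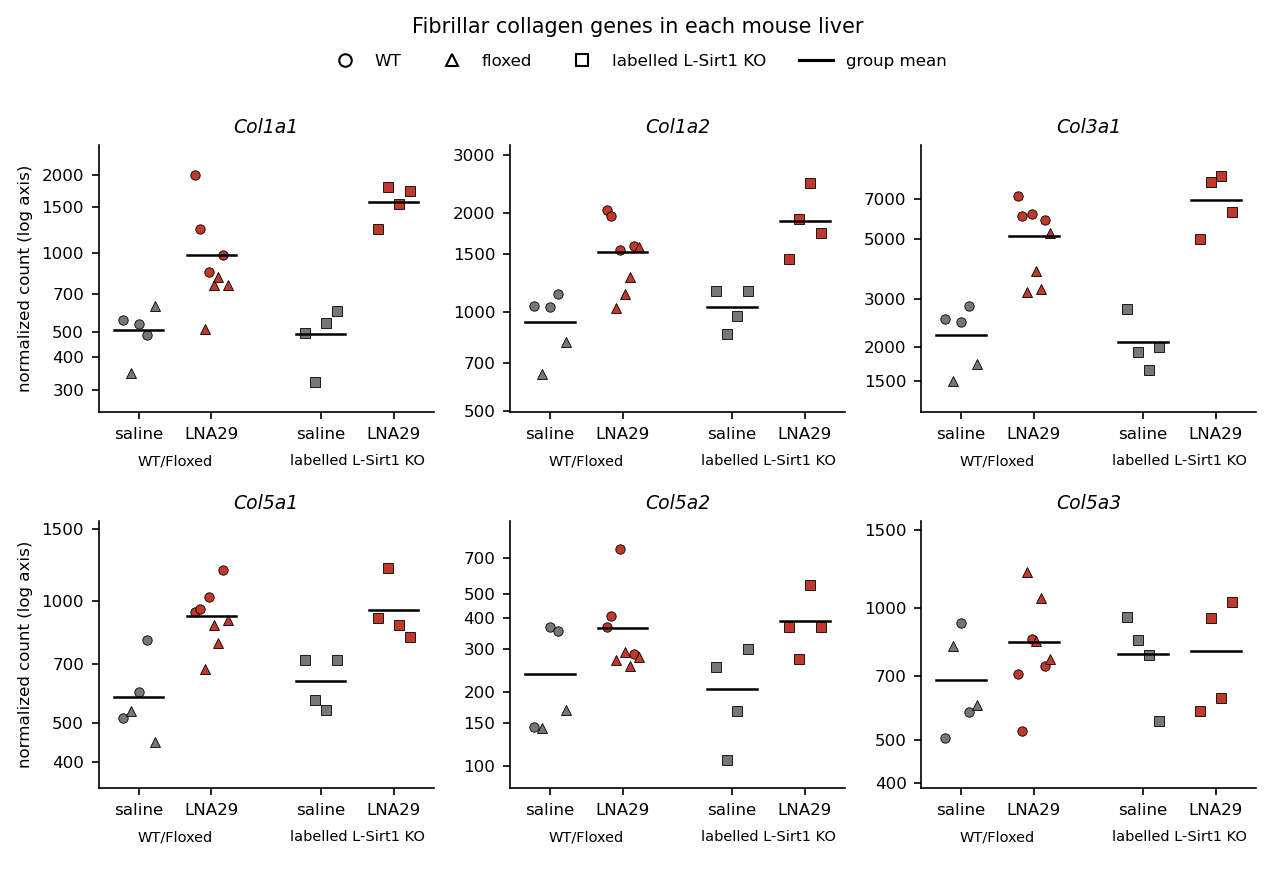
Normalized counts of the 6 fibrillar collagen genes (log axis) in each mouse liver, by treatment and genotype. Points are livers, circles WT, triangles floxed and squares labelled L-Sirt1 KO, and lines are group means. All LNA29-treated livers lie above all saline-treated livers for Col3a1 in both genotypes and, in the mice labelled L-Sirt1 KO, also for Col1a1, Col1a2 and Col5a1, while the Col5a3 groups overlap throughout.

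The WT/Floxed group pools mice of differing background and age, and the fibrillar collagens differed between them, a comparison added after the values were seen. With treatment in the fit, Col3a1 was lower in floxed than in WT mice, with a log2 difference of -0.72 (SE 0.106, adjusted p = 0.00875), and so was Col1a2, with -0.53 (SE 0.106, adjusted p = 0.0189). These were 2 of 6 genes called lower, where 3.04% of all tested genes were (adjusted p under 0.05), and 0 were called higher, against 2.62%. With LNA29, Col3a1 counts were 7184, 6076, 6149 and 5828 in the WT mice and 3177, 3793, 3271 and 5227 in the floxed mice. The saline counts were 2526, 2458 and 2816 in WT mice and 1493 and 1726 in floxed mice. Within each treatment every floxed mouse was thus below every WT mouse for Col3a1. How many of all genes separate in this way was not counted, so nothing is read from it. In the same limma fit 4014 of the 15811 genes had an unadjusted p under 0.05, among them 5 of the 6 members. The log2 difference was -0.55 for Col1a1 (adjusted p = 0.121), -0.35 for Col5a1 (adjusted p = 0.0710), -0.69 for Col5a2 (adjusted p = 0.0932) and 0.33 for Col5a3 (adjusted p = 0.239), and none of these passed. When the flow cell was added to this fit, Col5a1 and Col5a2 were called lower as well. Of 24 other collagen genes, 4 were called lower in floxed mice as well (Col4a1, Col8a1, Col15a1 and Col18a1) and 0 higher, while 0 of 10 stellate cell and 0 of 5 myofibroblast markers were called. Background and age cannot be told apart here, since the WT mice were the younger ones. The paper names the National Health Institutes and NYU Winthrop Hospital for the LNA29 work, without saying which mice were treated where. A difference of site can therefore not be told apart either.

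The response to LNA29 was present in both backgrounds for Col3a1. The log2 fold change was 1.28 in WT mice alone (adjusted p = 0.00407) and 1.24 in floxed mice alone (adjusted p = 0.0685). For Col1a2 the values were 0.73 in WT mice alone (adjusted p = 0.112) and 0.77 in floxed mice alone (adjusted p = 0.133). Col1a1 had a log2 fold change of 1.19 in WT mice alone (adjusted p = 0.227) and of 0.58 in floxed mice alone (adjusted p = 0.338), and passed in neither. Col5a1 was not called in WT mice alone but was called in floxed mice alone. Its log2 fold change stayed between 0.64 and 0.71 in these and the other settings with no single library left out. In a test of the difference between the backgrounds, none of the 6 genes was called by limma at an adjusted p under 0.05 and 0 had an unadjusted p under 0.05, while over all genes 0 were called and 1399 had an unadjusted p under 0.05. The floxed minus WT difference in response had a 95% interval of -0.53 to 0.45 for Col3a1 and of -1.50 to 0.28 for Col1a1 on the log2 scale, so the latter was only loosely bounded. With background in the fit of all 13 mice, Col1a1 had an adjusted p of 0.0380 and Col3a1 one of 7.54e-05.

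In mice labelled L-Sirt1 KO, Col1a1, Col3a1, Col1a2 and Col5a1 rose with LNA29, by 1.496-fold to 3.35-fold in the group means. They are 4 of the 6 genes called higher, against 1.19% of the 15885 genes tested, with 0 called lower, against 0.68%, and for all 4 the groups did not overlap, as for 3.65% of the tested genes that were higher. The 4 saline libraries had Col1a1 counts of 495, 320, 540 and 603 and the 4 LNA29 libraries had counts of 1245, 1790, 1546 and 1733. Its log2 fold change was 1.71 (SE 0.198, adjusted p = 0.00783). Col3a1 counts were 2750, 1917, 1639 and 1991 with saline and 4996, 8042, 8468 and 6276 with LNA29. The log2 fold change of Col3a1 was 1.74 (SE 0.196, adjusted p = 0.00783). The lowest LNA29 value of either gene was well above the highest saline value.

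The smaller rises were less secure. Col1a2 counts were 1159, 860, 974 and 1161 with saline and 1453, 1918, 2463 and 1732 with LNA29, which is 0.85 higher on the log2 scale (SE 0.166, adjusted p = 0.0890). The call of Col1a2 was lost when LNA29 replicate 2 or LNA29 replicate 4 was left out (adjusted p = 0.228 and 0.214). Col5a1 counts were 713, 569, 537 and 716 with saline and 904, 1205, 869 and 814 with LNA29, which is 0.58 higher on the log2 scale (SE 0.151, adjusted p = 0.189). Leaving out any of 7 of the 8 libraries moved Col5a1 past the limit (adjusted p up to 0.346), the exception being saline replicate 1, and with the flow cell in the fit neither Col1a2 nor Col5a1 was called. Col5a2 counts were 252, 105, 168 and 298 with saline and 367, 271, 542 and 368 with LNA29, and its log2 fold change of 0.97 did not pass (SE 0.321, adjusted p = 0.298). Col5a3 counts were 954, 844, 780 and 554 with saline and 582, 946, 625 and 1032 with LNA29, which gave a log2 fold change of 0.01 (95% interval -0.49 to 0.51, adjusted p = 0.994). Within the 3 flow cells, each with 1 or 2 libraries a group, the log2 difference was 1.59 to 2.27 for Col1a1, 1.205 to 2.14 for Col3a1, 0.53 to 1.52 for Col1a2 and 0.39 to 0.61 for Col5a1.

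Whether LNA29 acted differently in mice labelled L-Sirt1 KO was tested as the difference between both responses. None of the 6 genes was called by limma at an adjusted p under 0.05, and Col1a1 was the only one with an unadjusted p under 0.05. Its response was larger in the mice labelled L-Sirt1 KO by 0.84 on the log2 scale (SE 0.376, adjusted p = 0.499), and by 1.13 when only the floxed mice, of matching age, were set against them (adjusted p = 0.279). The background of this test is 0% called over 15601 genes, with 1426 genes at an unadjusted p under 0.05. For Col3a1 the 95% interval of the difference was -0.14 to 1.25 and for Col5a3 it was -0.92 to 0.37.

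**Figure D2:**
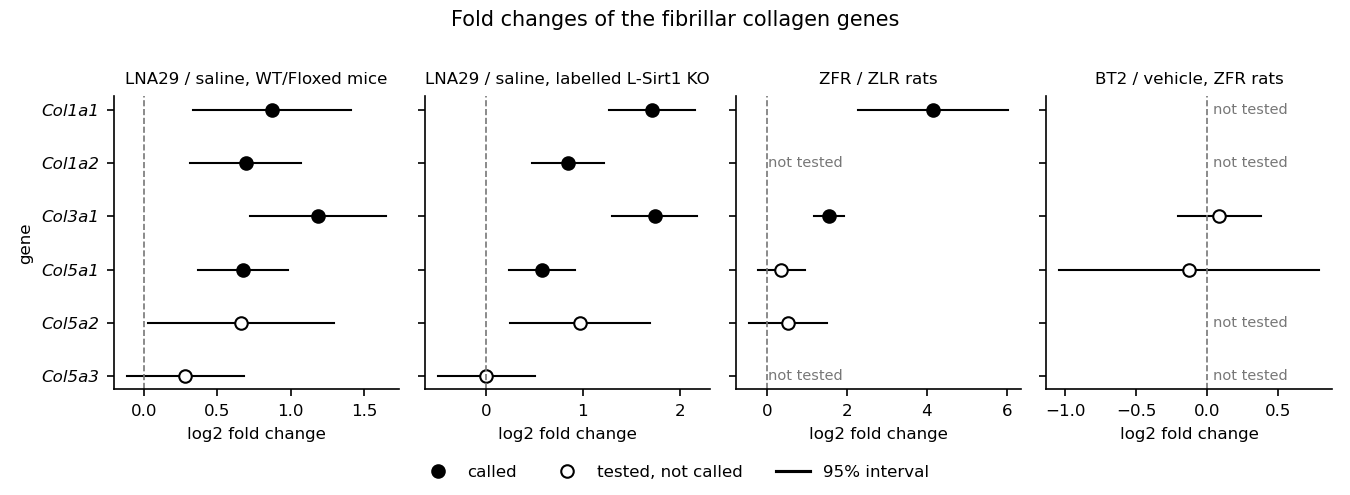
Log2 fold changes of the fibrillar collagen genes with 95% intervals in the 4 comparisons, filled where the gene was called and open where it was tested and not called. Col3a1 is called in both mouse comparisons and in ZFR against ZLR (1.56), and lies near 0 in BT2 against vehicle (0.09). Col1a1 is filled in ZFR against ZLR as well, but reached the minimum mean only through ZFR and was not called without a minimum. The x axes differ between panels.

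The matches and the log2 fold changes can be set side by side, first in the WT/Floxed set and then in the L-Sirt1 KO set. Col1a1, with 1 site of 8 bases and 3 GGTGCTA matches in all, was at 0.87 and 1.71. Col3a1, with 1 site of 8 bases and 2 GGTGCTA matches, was at 1.19 and 1.74. Col1a2, with the single GGTGCTA match, was at 0.69 and 0.85. These are the genes of the main fibril chains, and none of them holds more than 1 seed match of 7 bases. Col5a1, with 4 seed matches and 2 GGTGCTA matches, was at 0.67 and 0.58. Col5a2, with 1 site of 8 bases and 2 GGTGCTA matches, was at 0.66 and 0.97, and neither value passed. Col5a3, with 3 seed matches and 1 GGTGCTA match, was at 0.28 and 0.01, and neither passed. An order by seed matches and an order by GGTGCTA matches thus differ, and with 6 genes neither was tested against the response.

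The makeup of the fibrillar collagen count also differed between treatments. Per kb, Col3a1 made up 40.3% to 50.01% of the summed count of the 6 genes in saline-treated WT/Floxed livers and 46.4% to 57.8% in LNA29-treated ones. In the mice labelled L-Sirt1 KO its share was 37.5% to 46.1% with saline and 54.6% to 60.1% with LNA29, without overlap. The share of Col5a3 was 10.1% to 17.7% with saline and 4.03% to 8.17% with LNA29 in the same mice. In WT/Floxed livers the Col5a3 share was 9.10% to 20.1% with saline and 4.46% to 16.9% with LNA29, ranges that overlapped. The ratio of Col1a1 to Col1a2 per kb had medians of 0.427 with saline and 0.807 with LNA29 in the mice labelled L-Sirt1 KO, where the groups did not overlap, and of 0.483 and 0.567 in WT/Floxed mice, where they did. These shares describe the same counts as the folds above and were not tested separately.

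**Figure D3:**
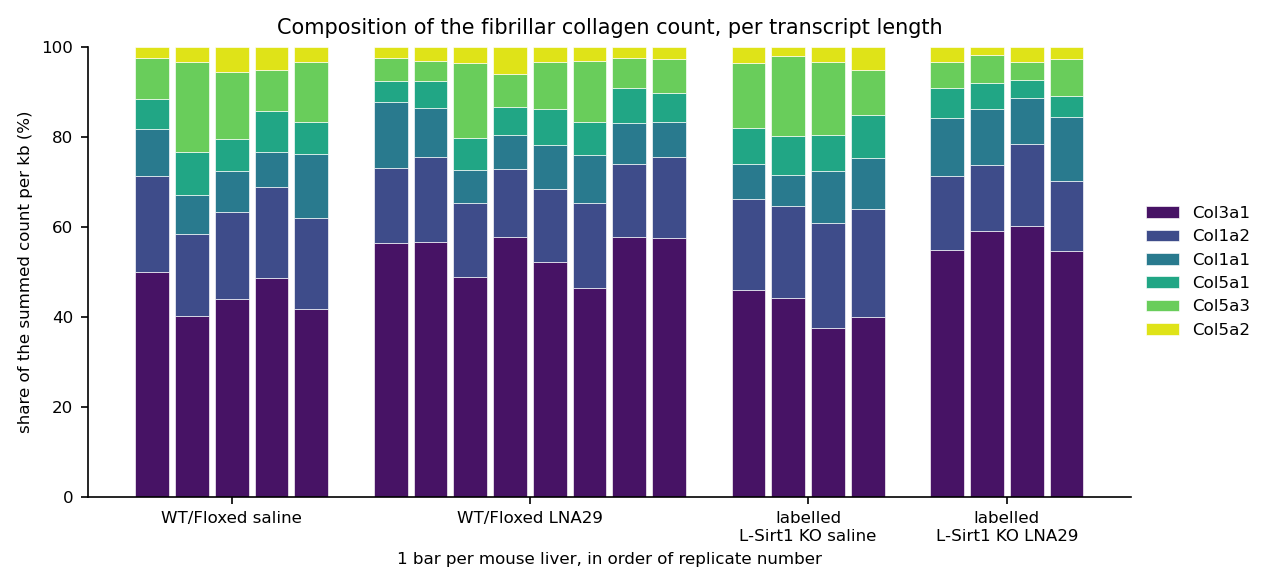
Share of each gene in the summed normalized count per kb of the 6 fibrillar collagen genes (y axis, percent), with 1 bar per mouse liver grouped by treatment and genotype. Col3a1 takes 37.5% to 50.01% of the bars of saline-treated livers and 46.4% to 60.1% of those of LNA29-treated livers.

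Within groups, Col1a2 and Col3a1 varied together. After each group was centred, the Pearson correlation of their log2 counts was 0.94 over the 13 WT/Floxed livers and 0.79 over the 8 livers labelled L-Sirt1 KO. Col1a1 correlated with Col1a2 at 0.78 and 0.58 in the same sets. Col5a3 ran the other way in WT/Floxed livers, at -0.63 with Col1a1, -0.68 with Col1a2 and -0.64 with Col3a1, but not in the livers labelled L-Sirt1 KO, at 0.06, -0.12 and 0.32. The WT/Floxed values include the background difference described above, and the points share libraries and scaling, so they are descriptions.

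Among the other genes whose group-centred pattern was most like the mean log2 count of the 6 collagens over the 13 WT/Floxed livers were Rgs12 (r = 0.96), Dcaf11 (0.94), Col15a1 (0.94) and Tbck (0.93). Over the 8 livers labelled L-Sirt1 KO, the correlation was 0.77 for Col15a1, which encodes a collagen of basement membrane zones, 0.47 for Rgs12, 0.04 for Tbck and -0.57 for Dcaf11. The WT/Floxed values were picked as the largest and include the background difference, so they are descriptions as well. None of these 4 genes was called in either mouse comparison. In rats only Dcaf11 was called by limma, lower in ZFR than in ZLR (-0.95, adjusted p = 0.000568). For Col15a1 the log2 difference between LNA29 and saline was -0.63 in the WT/Floxed set and 0.67 in the L-Sirt1 KO set (adjusted p = 0.293 in both).

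Among the rest of the collagen family, the remaining fibrillar genes were not called in any comparison. Of Col2a1, Col11a1, Col11a2, Col24a1 and Col27a1, 3 passed the minimum mean in each mouse table. Col27a1, which had the highest counts of them, was at 0.07 (adjusted p = 0.923) in the WT/Floxed set and 0.11 (adjusted p = 0.873) in the L-Sirt1 KO set. Col24a1 had 0.56 (adjusted p = 0.652) and 0.06 (adjusted p = 0.983), and Col11a2 had -0.15 (adjusted p = 0.898) and -0.03 (adjusted p = 0.987). Of the other collagen genes, 6 of 24 tested were called higher and 0 lower in WT/Floxed mice, with a median log2 fold change of 0.21. They are the basement membrane collagens Col4a2 (0.96, adjusted p = 0.0428), Col4a4 and Col4a5 and the beaded filament collagens Col6a1, Col6a2 and Col6a3. In mice labelled L-Sirt1 KO, 4 of 23 were called higher and 0 lower, with a median of 0.63. These were Col4a2 (0.94, adjusted p = 0.0892), Col4a1, Col6a1 and Col6a3. No non-fibrillar collagen gene that was called had a log2 fold change as large as that of Col3a1 in the same comparison.

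Genes of collagen folding, processing and crosslinking were called higher in 4 of 23 cases in the WT/Floxed set and 3 of 23 in the L-Sirt1 KO set, and 0 were called lower. Sparc, a secreted protein that binds collagen, rose by 1.16 (adjusted p = 2.44e-05) and 1.07 (adjusted p = 0.00783) on the log2 scale. Its counts were 3518 to 4109 with saline and 6895 to 9820 with LNA29 in WT/Floxed mice, so these groups did not overlap. Loxl2, which crosslinks collagen, rose by 0.82 (adjusted p = 0.0179) and 0.77 (adjusted p = 0.165) on the log2 scale. Serpinh1, the collagen chaperone, and Adamts14, which trims procollagen, were called in WT/Floxed mice (0.52 and 0.92). Loxl4, another crosslinking enzyme, was called in the mice labelled L-Sirt1 KO (1.84, adjusted p = 0.102). Sparc, Serpinh1 and Adamts14 held no TGGTGCT in the annotated 3′ UTR, while Loxl2 held 2 and Loxl4 held 1. Whether these genes hold GGTGCTA, the match found in Col1a2, is not given here. The paper names Sparc among the direct targets of miR-29.

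Markers of the cells that make collagen were not called in the mouse comparisons. In bulk liver, fewer cells of a type and less RNA per cell cannot be told apart. Of 10 hepatic stellate cell markers, 0 were called in either mouse comparison (limma, rule as above), with median log2 fold changes of 0.02 and 0.00. Their summed counts were 18608 to 22667 with LNA29 and 16986 to 23418 with saline in WT/Floxed mice, and 22010 to 23758 and 21752 to 25296 in mice labelled L-Sirt1 KO, with no marker at 0 in every library. Of the 5 tested myofibroblast markers, 0 were called in either comparison, with medians of 0.22 and 0.99. Their summed counts were 1270 to 2256 with LNA29 and 1410 to 2145 with saline in WT/Floxed mice. In mice labelled L-Sirt1 KO the sums were 1850, 2519, 5232 and 1369 with LNA29 and 1942, 1326, 2239 and 1409 with saline. LNA29 replicate 3 stood apart, with an Acta2 count of 1732 against 77.2 to 377 in the other 7 libraries, and it also had the highest Col1a2, Col3a1 and Col5a2 counts of its group. Without it the log2 fold change of Col3a1 was 1.63 and that of Col1a1 1.72, and both were still called. The part of myofibroblast markers in the result was not tested.

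Portal fibroblast markers had 0 of 6 called in either mouse comparison, with medians of 0.12 and 0.38, and cholangiocyte markers 0 of 5 in either. Of 6 hepatocyte markers, Apoa1 was called higher in the WT/Floxed set (0.51, adjusted p = 0.0312), and 0 of the 6 passed in the L-Sirt1 KO set. Of 8 macrophage markers, 0 were called in WT/Floxed mice and 2, Clec4f and Vsig4, were called lower in mice labelled L-Sirt1 KO. The sinusoidal endothelial marker Lyve1 was called lower in both (-0.51 and -1.17), as 1 of 8 in its list.

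**Figure D4:**
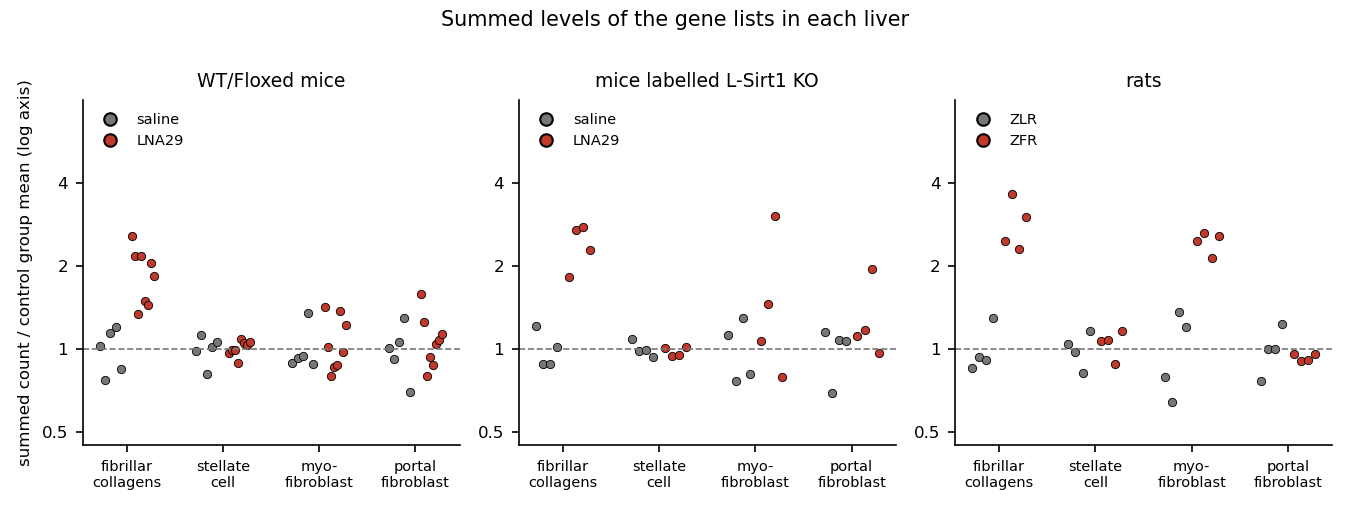
Summed normalized counts of the fibrillar collagens and of 3 marker lists in each liver, divided by the mean of the saline or ZLR group (log axis). The fibrillar collagen sums of treated livers or ZFR lie above all those of the controls in each panel. Col3a1, with the highest counts, weighs most in these sums, which lack Col1a2 in rats and do not show each gene's own change. Stellate cell sums overlap in each panel, and myofibroblast sums overlap in mice but lie at 148 to 183 counts in ZFR against 44.9 to 94.5 in ZLR.

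In obese rats Col3a1 was called higher than in lean rats, and so was Col1a1, a gene that reached the minimum mean only through the obese group. Over the 8633 genes tested 1.8% were called higher and 2.46% lower (adjusted p under 0.05). Of the 4 members tested 2 were called higher and 0 lower, and because of Col1a1 nothing is read from that count against these shares. This comparison asks how the liver of ZFR differs from that of ZLR. Col3a1 counts were 172, 187, 179 and 251 in ZLR and 520, 738, 474 and 600 in ZFR, so all 4 fatty rats lay above all 4 lean rats, as for 7.8% of the tested genes. The log2 fold change was 1.56 (SE 0.169, adjusted p = 0.000884), and leaving out any 1 library kept it between 1.44 and 1.68. The reads behind these values ranged from 17 and 24 in ZLR replicates 3 and 4, both shallow, to 16155 in ZFR replicate 1. Restricted to the 3 libraries above 5 M reads, 1 ZFR and 2 ZLR, the log2 fold change was 1.53. With 1 ZFR library that fit takes its spread from the 2 ZLR libraries and assumes that the ZFR library varies like them, so its adjusted p of 0.0756 says little about stability.

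Col1a1 counts were higher in ZFR, by an amount that depended on the treatment of low values. Its counts were 8.05, 5.74, 0 and 0 in ZLR and 26.6, 74.1, 37.6 and 76.2 in ZFR. Both zeros come from libraries with about 0.19 M reads, where 1 read is worth over 10 normalized counts, so that a count of 0 allows up to 31.6 and 31.3 normalized counts (3 reads, for counting error only). The ZFR counts rest on 827, 63, 18 and 49 reads and the ZLR counts on 210, 133, 0 and 0. Its log2 fold change was 4.16 (SE 0.838, adjusted p = 0.0223 by limma), but Col1a1 entered this test only through its ZFR counts. Its adjusted p values with the minimum mean in place are therefore not read as support. Without a minimum mean the adjusted p was 0.0750 and Col1a1 was not called. With a pseudocount of 10 the log2 fold change was 2.20 (adjusted p = 0.00311), and without the 2 libraries under 0.5 M reads it was 2.67 (adjusted p = 0.00778). In the 3 libraries above 5 M reads it was 1.82, with the same limit on the test (adjusted p = 0.128), and leaving out any 1 ZFR library ended the call (adjusted p = 0.0512 to 0.103). Within the flow cell that held replicates 1 and 2 of both groups the log2 difference of Col1a1 was 2.54 and that of Col3a1 1.78. Within the flow cell with replicates 3 and 4, where both ZLR libraries were shallow, they were 5.77 and 1.33.

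The type V chains were too low in most rat libraries for a firm statement. Col5a1 counts were 19.4, 23.9, 32.004 and 42.3 in ZLR, the last 2 of which rest on 3 and 4 reads, and 35.4, 39.9, 31.7 and 39.8 in ZFR. Its log2 fold change of 0.36 did not pass (95% interval -0.23 to 0.96, adjusted p = 0.522). Col5a2 counts were 6.90, 9.80, 10.5 and 20.9 in ZLR and 16.6, 24.7, 12.5 and 14.0 in ZFR, with a log2 fold change of 0.52 (95% interval -0.46 to 1.505, adjusted p = 0.573). Within the flow cells the log2 differences were -0.05 and 0.77 for Col5a1 and -0.16 and 1.204 for Col5a2. When libraries were weighted by their estimated reads, both genes were called higher in ZFR, Col5a1 by 0.87 (adjusted p = 0.00159) and Col5a2 by 1.17 (adjusted p = 0.00190). In ZFR replicate 1 they rest on 1099 and 516 reads, against 6 to 34 in ZFR replicates 2 to 4. That fit thus favours ZFR replicate 1, and its adjusted p values say little about stability. Col5a3 was below the minimum mean, with 0 to 8 reads in ZFR libraries and 0 to 15 in ZLR libraries.

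**Figure D5:**
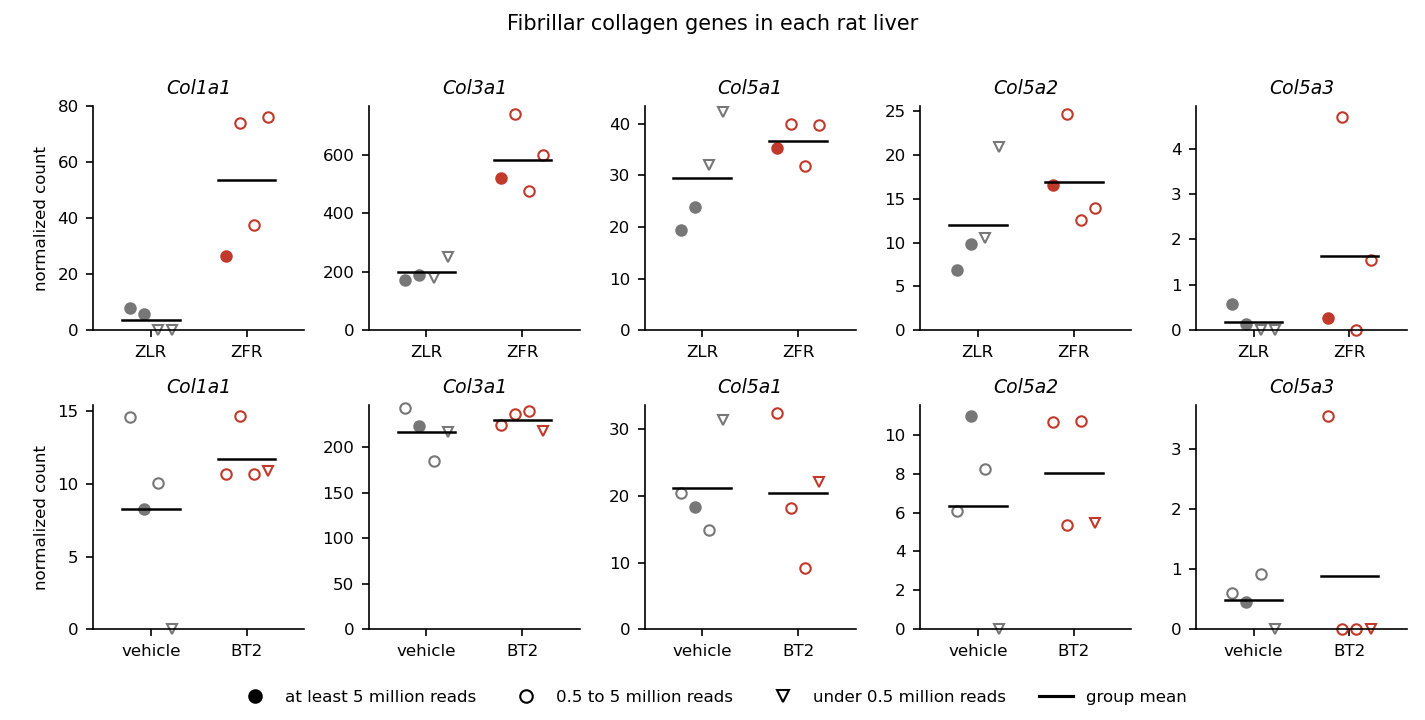
Normalized counts of the 5 fibrillar collagen genes listed in rats, with ZLR and ZFR in the upper row and vehicle and BT2 in the lower row. Filled circles are libraries of at least 5 M reads, open circles 0.5 to 5 M reads and open triangles under 0.5 M reads, and lines are group means. Col3a1 separates ZFR (474 to 738) from ZLR (172 to 251), and the BT2 and vehicle ranges overlap for each gene.

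Other collagen genes were called higher in ZFR in 2 of 10 tested cases, Col4a1 (1.16, adjusted p = 0.0199) and Col14a1, and lower in 0. Of 13 tested folding, processing and crosslinking genes, Sparc was called higher (0.92, adjusted p = 0.0167) and Fn1, fibronectin, lower (-0.38, adjusted p = 0.0476). Col27a1, the 1 remaining fibrillar gene tested, had 0.78 (adjusted p = 0.694). Of the stellate cell markers, 0 of 6 tested were called, with a median of -0.00. Of 3 tested myofibroblast markers Acta2, smooth muscle actin, was called higher by 2.24 (adjusted p = 0.00768), with counts of 57.2, 58.8, 39.7 and 56.0 in ZFR and 7.85, 6.17, 21.1 and 10.4 in ZLR. The summed myofibroblast counts of the groups did not overlap, and the part of these markers in the collagen result was not tested. Of the remaining marker lists, 3 of 6 hepatocyte markers (Apob, Cps1 and Ttr) were lower, 1 of 7 sinusoidal endothelial markers (Stab2) was higher, and 0 of 7 macrophage, 0 of 3 cholangiocyte and 0 of 1 portal fibroblast markers were called.

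After 1 week of BT2 no fibrillar collagen gene was called in ZFR, and the values of the best measured one were close between groups. Col3a1 counts were 243, 223, 184 and 217 with vehicle and 224, 236, 240 and 218 with BT2. The BT2 values lay wholly inside the vehicle range, and they rest on 40 to 179 reads a library, against 21 to 997 with vehicle. The log2 fold change was 0.09 (95% interval -0.21 to 0.38, adjusted p = 0.928). Col5a1 counts were 20.4, 18.4, 14.9 and 31.4 with vehicle and 32.4, 18.1, 9.18 and 22.0 with BT2, with a log2 fold change of -0.13 (95% interval -1.04 to 0.79, adjusted p = 0.972). Within the 2 flow cells the log2 differences were -0.02 and 0.19 for Col3a1 and -0.56 and 0.31 for Col5a1. By limma 0 of these 2 genes had an unadjusted p under 0.05, and over all 8405 genes 0% were called in either direction while 332 had an unadjusted p under 0.05.

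Col1a1, Col5a2 and Col5a3 were below the minimum mean in the BT2 table, so they were tested only in the fit without a minimum. Col1a1 just missed it with a mean of 9.99 normalized counts, from 14.6, 8.28, 10.1 and 0 with vehicle and 10.7, 14.7, 10.7 and 10.9 with BT2, which rest on 0 to 37 reads a library. Without a minimum mean the log2 fold change of Col1a1 was 0.997 (95% interval -0.91 to 2.90, adjusted p = 0.901), that of Col5a2 was 0.71 (95% interval -1.21 to 2.63, adjusted p = 0.901) and that of Col5a3 was 0.01 (95% interval -1.09 to 1.11, adjusted p = 0.9998). None passed, and these intervals leave room for sizeable changes in either direction. Neither the other collagens (0 of 8 tested) nor the folding, processing and crosslinking genes (0 of 12 tested) held a gene that was called, and their largest values were 1.81 for Col4a4 and 1.32 for Dcn (both adjusted p = 0.898). Of the marker lists 0 genes were called either.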

How the data were processed

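RNA-seq of 37 livers was read from 4 deposited tables, each normalized by the authors on its own. Their values, here treated as a signal, are read counts that the authors obtained with STAR and Salmon (mm10 for mice, rn6 for rats) and scaled with DESeq2 size factors, from polyA+ libraries. Only 70.3% to 90.6% of low values were whole multiples (tolerance 0.02) of the value of 1 read (the most frequent value above 0), so whole reads were not recovered, no count model was run, and depth is an estimate that covers counting error only. The unmatched value columns numbered 0. Rows without a name (381 in mice, 201 in rats) or with a repeated name (130 and 4523) were left out, and none of the members was repeated.

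Tests used R 4.3.3 and limma 3.58.1 (linear models with a mean-variance trend) on log2(normalized count + 1) for genes with a mean of at least 10, with Benjamini-Hochberg adjustment over all genes tested. The added 1 shrinks the folds of low genes, while zeros from shallow libraries can enlarge them, as for Col1a1 in ZFR against ZLR. Mouse calls needed p under 0.05, adjusted p under 0.2, mean above 50 and fold above 1.2, and rat, background and interaction calls an adjusted p under 0.05. The script was tested on simulated data. Alternatives were a pseudocount of 10, no minimum, TMM scaling, sample quality weights, flow cell, background or replicate number in the fit, WT or floxed mice alone, an adjusted p under 0.05, precision weights, deep rat libraries alone and each library left out. Sites were searched with Python 3.11.15 and pandas 2.3.3, and figures drawn with matplotlib 3.10.9.

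The members, gene lists and tests were chosen with earlier results of these data known. Named are the 6 members, Sirt1, every tested fibrillar gene, the called gene with the largest change in each list and the 5 genes most like the members, of which 1 is not reported here. Other called genes are named where a list had few, and Acta2 in mice, after their values were seen. Groups come from the labels, and ages, doses and background details from the study's methods. Replicate numbers did not pair the samples.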

Additional observations from a re-analysis of the deposited data

Results flagged for a closer look

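Within groups of 4 to 8 livers, 3 of 44 combinations of a gene and a group had a library far from the rest by Dixon's test at 95%, and chance alone flags about 1 in 20. Col5a2 was at 759 normalized counts in WT/Floxed LNA29 replicate 4, a WT mouse, against 407 in the next highest of the 8 livers. Without this library the log2 fold change of Col5a2 in WT/Floxed mice was 0.50 and still did not pass. Col1a1 was at 14.7 normalized counts in ZFR BT2 replicate 2 against 10.9 in the next, which rests on 11 reads. Col5a3 was at 3.56 normalized counts in ZFR BT2 replicate 1, which is 1 read, while the other 3 BT2 libraries were at 0.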

How the results depend on the processing

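Of the log2 fold changes of single members, 356 of the values with 1 library left out and 156 of those under other settings kept their direction and their side of the threshold, while 16 and 19 lost the call, 1 and 7 gained it and 5 and 2 changed sign. The number of members called in WT/Floxed mice, 4 as reported, was 5 with the background in the fit, which added Col5a2, 4 in floxed mice alone, where Col5a2 was called and Col1a1 was not, 1 with the replicate number as a block, 2 in WT mice alone and 2 at an adjusted p under 0.05 without the other limits, and 3 to 4 with each replicate left out. In mice labelled L-Sirt1 KO it was 2 (Col1a1 and Col3a1) with the flow cell in the fit, 2 with the replicate block and 2 at an adjusted p under 0.05 alone, and 2 to 4 with each replicate left out. In ZFR against ZLR, 2 as reported, it was 1 without a minimum mean and 1 with the replicate block. There it was 4 with precision weights, which favour the deep libraries, and 1 to 2 with each replicate left out. Col1a1, counted here, reached the minimum mean only through the obese group, so nothing is read from these counts. The fit of libraries above 5 M reads, 1 ZFR and 2 ZLR, is too small to show a lost effect. In floxed against WT mice the number of members called was 4 with the flow cell in the fit, and 2 to 3 with each replicate left out. For BT2 and for the difference between LNA29 responses it was 0 under each setting run. Col3a1 was called in each of these mouse settings and left-out fits of its 2 LNA29 comparisons. The cause of these shifts was not tested. Reversals touched only values near 0 that were not called. Col5a3 in mice labelled L-Sirt1 KO was at -0.013 with the flow cell in the fit and between -0.15 and 0.14 with each replicate left out. Col5a1 under BT2 was at 0.054 with sample quality weights and between -0.38 and 0.19 with each replicate left out. Same-numbered libraries did not deviate together (correlations of -0.28 to 0.24 in WT/Floxed mice, -0.08 to 0.19 in mice labelled L-Sirt1 KO, -0.03 to 0.03 in ZFR and ZLR and -0.02 to 0.15 for BT2), and the main fits did not treat them as pairs. In rats, same-numbered libraries did share a flow cell. With the replicate block the number of all genes called was 56 in WT/Floxed mice (688 without), 145 in mice labelled L-Sirt1 KO (297 without), 221 in ZFR against ZLR (367 without) and 0 for BT2. The alternative with deep libraries alone was not run for BT2, which has no library above 5 M reads in its treated group. In rats depth limits every member, Col3a1 too, which rests on 17 to 40 reads in the 4 libraries under 0.5 M reads.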
